A study of Homo sapiens with 6 samples.

Results

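WWTR1 encodes TAZ, and the deposited tables hold it as 1 gene with 5 transcripts beside its antisense gene WWTR1-AS1 with 1 transcript. The members were every row with either symbol, which gave 2 of the 46427 genes and 6 of the 170322 transcripts listed. They were measured by mRNA sequencing in 6 libraries of MDA-MB-231, a metastatic human breast cancer cell line. In 3 libraries the cells, of a genotype labelled WT, had received control-siRNA. In the other 3, labelled TAZ knockdown, they had received siGENOME human WWTR1 siRNA, here called TAZ-siRNA, with the transfection reagent DharmaFECT4. Both groups grew in low-glucose medium, how long the sequenced cells were exposed to siRNA is not given in the sources used here, and the siRNA sequences are not given there either. In the sequenced libraries TAZ was lowered in 1 cell line with 1 siRNA reagent, so they hold no second reagent against the same mRNA. The comparison asks how deeply the mRNA of TAZ fell and whether its transcripts fell evenly.

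TAZ is a transcriptional coactivator and the paralog of YAP. The kinases of the Hippo pathway phosphorylate both proteins and keep them in the cytoplasm, and in the nucleus they act on target genes through the TEAD transcription factors. A siRNA guides cleavage of mRNAs that hold its target sequence, so transcripts of a gene that share that sequence can all be cut.

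WWTR1 (NCBI gene 25937) is read from the minus strand of chromosome 3, and the files give it from 149517229 to 149724788 in GRCh38, a span of 207560 bases. The 5 transcripts use 4 start sites. Variant 1 (NM_015472, 5037 bases) and variant 3 (NM_001168280, 4977 bases) share the span from 149517235 to 149658025 and therefore the same start. Variant X1 (XM_017006122, 5022 bases) begins 12884 bases upstream of that start, variant 2 (NM_001168278, 5036 bases) 45248 bases upstream and variant 4 (NM_001348362, 5234 bases) 66763 bases upstream. WWTR1-AS1 (NCBI gene 100128025), a non-coding RNA, has the transcript NR_040250 of 1700 bases, from 149658210 to 149661364 on the plus strand. Its start lies 184 bases from that of variants 1 and 3, and the transcripts run away from each other. WWTR1-AS1 thus overlaps no part of variants 1 and 3, but it lies within the spans of variants 2, 4 and X1. The libraries were prepared with a stranded kit, and whether the counting used strand is not stated. Where exons overlap in that stretch, sense and antisense reads may not be told apart in the counts. The GENCODE release 44 transcript WWTR1-203, which starts where variant 2 does, has no exon in that stretch. The exons of variants 4 and X1 were not examined.

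**Figure D1:**
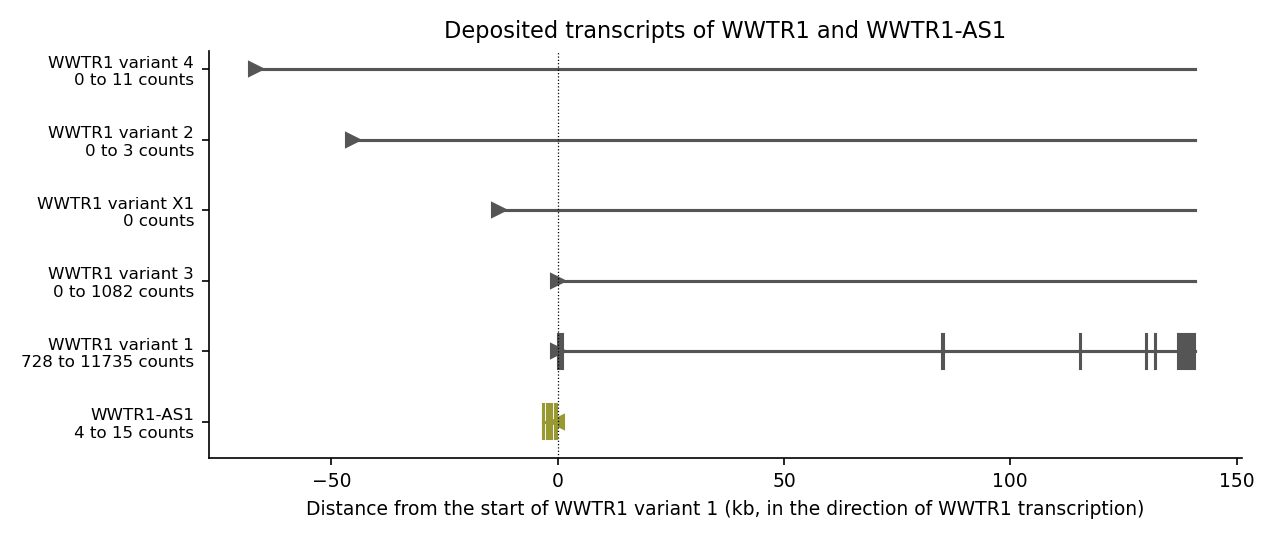
The 6 deposited transcripts by distance from the start of WWTR1 variant 1, in kilobases along the direction of WWTR1 transcription. Lines are spans, arrowheads mark start sites, boxes are the exons of the GENCODE transcript of the same length for variant 1 and WWTR1-AS1, and the range of counts over the 6 libraries stands under each name.

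Nearly all estimated WWTR1 counts were assigned to variants 1 and 3, which share a start, and almost none to the others. The GENCODE transcripts WWTR1-201 and WWTR1-203, with the starts of variants 1 and 2, share a 434-base exon and all later exons. Reads in those exons do not show which start was used. The windows before variants 4 and X1 were not examined, though variant 4 had up to 11 counts a library and variant 2 up to 3. The 250 bases before variants 1 and 3 and those before variant 2 are shown, and they differ in sequence. Both windows are given 5′ to 3′ on the WWTR1 strand, from RefSeq promoters of GRCh38.p14, with each CG in capitals. The first is chr3:149658026-149658275, which precedes variants 1 and 3, and its last 184 bases are the stretch between the WWTR1 and WWTR1-AS1 starts. The other is chr3:149703274-149703523, which precedes variant 2.
WWTR1 variants 1 and 3: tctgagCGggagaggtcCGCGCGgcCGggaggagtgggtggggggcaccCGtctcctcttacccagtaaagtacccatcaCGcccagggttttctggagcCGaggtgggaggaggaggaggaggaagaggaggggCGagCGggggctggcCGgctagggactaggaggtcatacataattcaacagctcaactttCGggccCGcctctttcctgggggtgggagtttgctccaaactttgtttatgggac
WWTR1 variant 2: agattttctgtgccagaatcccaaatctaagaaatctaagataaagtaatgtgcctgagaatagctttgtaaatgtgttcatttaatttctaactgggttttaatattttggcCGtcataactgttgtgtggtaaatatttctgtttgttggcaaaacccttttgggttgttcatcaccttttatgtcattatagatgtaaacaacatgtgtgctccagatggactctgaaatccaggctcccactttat
The window before variants 1 and 3 holds 13 CG and is 62.0% G or C, where the median of 35116 RefSeq promoters of the same length is 11 CG and 58.0%. The window before variant 2 holds 1 CG and is 35.2% G or C, and 85.3% of all promoters hold more CG. The TEAD motif GGAATG, searched on both strands as were the others, is in neither window and in 11.9% of all promoters. TATAAA (10.7% of promoters), CCAAT (32.0%) and GGGCGG (42.6%) are also in neither.

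Variant 1 matches the GENCODE release 44 transcript WWTR1-201 in start, end and length (7 exons, 5037 bases). Variant 3 has the same start and end and is 60 bases shorter, and the deposited tables do not give its exons, so where those bases lie is not analysed here.

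The libraries held 48307548 to 71749634 gene counts, so 3 counts, the limit that a count of 0 allows, were worth 0.0411 to 0.0618 CPM (counts after scaling every library to one size). These limits cover counting error only. Of the epithelial markers, KRT8 and KRT18 were at 496 to 556 CPM as group means and did not pass the test, KRT19 rose from 63.4 to 81.7 CPM (adjusted p = 0.00123, edgeR), and EPCAM was low (1.30 and 0.994 CPM). Of the mesenchymal markers, VIM and CD44 were at 511 to 3572 CPM and did not pass, and AXL fell from 478 to 376 CPM (adjusted p = 0.00234, edgeR). Of the markers low or absent in this line, GATA3 fell from 8.67 to 6.23 CPM (adjusted p = 0.00809, edgeR), CDH1 was at 0.289 and 0.168 CPM, and ESR1 and PGR had at most 6 counts in any library. Markers of other cells were at 0 (PTPRC), at 0 to 10 counts (COL3A1) or at 4.66 and 5.61 CPM (PECAM1). TAZ-siRNA replicate 3 stood apart: it differed from the other TAZ-siRNA libraries by a root mean square of 0.207 and 0.232 in log2(CPM + 1) over 13592 genes, while those differed from each other by 0.159 and the control-siRNA libraries by 0.143 to 0.162. The groups are cell preparations, so p-values measure the spread between these preparations, and in bulk RNA fewer cells with a transcript and less of it per cell cannot be told apart.

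WWTR1 mRNA fell to under 10% of its control level in every TAZ-siRNA library. Cells given control-siRNA had 192, 189.7 and 189.9 CPM of it. Cells given TAZ-siRNA had 17.3, 17.0 and 15.1 CPM, or 9.08%, 8.93% and 7.91% of the control-siRNA mean. The groups lay far apart, and the lowest TAZ-siRNA value was that of replicate 3, the library that stood apart. The log2 fold change was -3.53 (SE 0.0613, adjusted p = 2.47e-10, Benjamini-Hochberg, from the quasi-likelihood test of edgeR), equal to 8.65% remaining with a 95% interval of 7.87% to 9.50%. Without TAZ-siRNA replicate 3 the log2 fold change was -3.47. Of the 16966 genes tested, 22.1% were called in either direction and 10.2% were called lower, and WWTR1 had the smallest p of all, while 10 genes had a lower log2 fold change. The spread between libraries of a group was small, with a coefficient of variation of 0.762% in control-siRNA and 7.35% in TAZ-siRNA.

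Per transcript length, WWTR1 was at 84.2, 82.9 and 79.8 TPM (a measure scaled for transcript length and depth) with control-siRNA and at 7.99, 7.80 and 6.40 TPM after TAZ-siRNA. Among the genes tested, 88.5% had a lower mean TPM than WWTR1 in control-siRNA and 41.9% in TAZ-siRNA. Its paralog YAP1 was at 62.0, 62.5 and 52.0 TPM with control-siRNA and at 63.9, 63.4 and 54.5 TPM with TAZ-siRNA. These YAP1 values overlapped between the groups, and its log2 fold change was 0.00 (adjusted p = 0.974, edgeR). The ratio of WWTR1 to YAP1 in TPM averaged 1.41 ± 0.113 with control-siRNA and 0.122 ± 0.00387 after TAZ-siRNA (SD over 3 libraries each). On the TPM scale WWTR1 mRNA was thus the more abundant of the paralogs in each of the 3 control-siRNA libraries and the less abundant in each TAZ-siRNA library.

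Variant 1 carried nearly all of WWTR1 and nearly all of its fall. Its counts were 11735, 11349 and 8474 with control-siRNA and 1262, 728 and 827 with TAZ-siRNA. In CPM it went from 177 ± 4.82 to 15.7 ± 1.60 (SD, n = 3 each), and the TAZ-siRNA libraries held 9.93%, 8.36% and 8.36% of the control-siRNA mean. The groups did not overlap, and the percentages lay within 2 points of each other. The log2 fold change was -3.49 (SE 0.0959, adjusted p = 0.00501, edgeR, adjusted over all transcripts tested), with 8.89% fitted to remain (95% interval 7.53% to 10.5%). Variant 1 had the smallest p of the 64638 transcripts tested, of which 11, or 0.0170%, were called. This call depended on the full set of libraries: the size of the fall was kept in each fit that left out 1 library (-3.58 to -3.45), but the adjusted p was 0.128 to 0.146 in 5 of those 6 fits and 0.0135 without TAZ-siRNA replicate 1, the library with the highest remaining level. At most 1 transcript of all genes was called in any of those fits.

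Variant 3 was a minor transcript and its estimate was unsteady. Its counts were 1082, 450 and 743 with control-siRNA and 0, 107 and 9 with TAZ-siRNA. In CPM these were 16.3, 7.20 and 15.1 against 0, 2.17 and 0.161. The groups did not overlap (exact permutation test, two-sided p = 0.1, the smallest that 3 against 3 allows). TAZ-siRNA replicate 1, the deepest library, is listed at 0. There 3 counts would be 0.325% of the control-siRNA mean, but that limit covers counting error only and not how reads shared with variant 1 were divided. TAZ-siRNA replicate 2 was the highest of its group. The group means were 12.9 ± 4.93 and 0.777 ± 1.21 CPM (SD, n = 3), or 6.05% remaining. The log2 fold change of -4.05 had an SE of 1.84 and did not pass the test (adjusted p = 0.816, edgeR), and its 95% interval ran from 0.243% to 149% remaining. Without TAZ-siRNA replicate 2 the remaining level was 0.626%, and without TAZ-siRNA replicate 1 it was 9.08%, so single libraries decided this value.

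**Figure D2:**
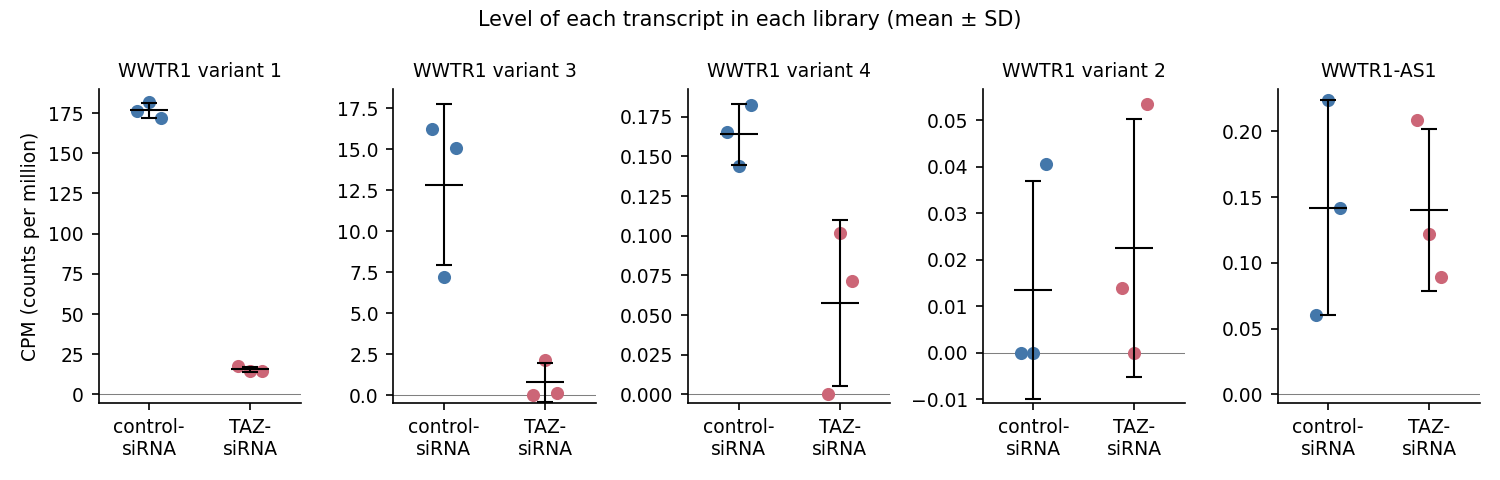
CPM of each transcript in each library, with points for libraries and bars for the mean ± SD of 3, on separate vertical axes. Variants 1, 3 and 4 do not overlap between control-siRNA and TAZ-siRNA, while variant 2 and WWTR1-AS1 do. Variant X1, at 0 counts in all 6 libraries, is not drawn.

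**Figure D3:**
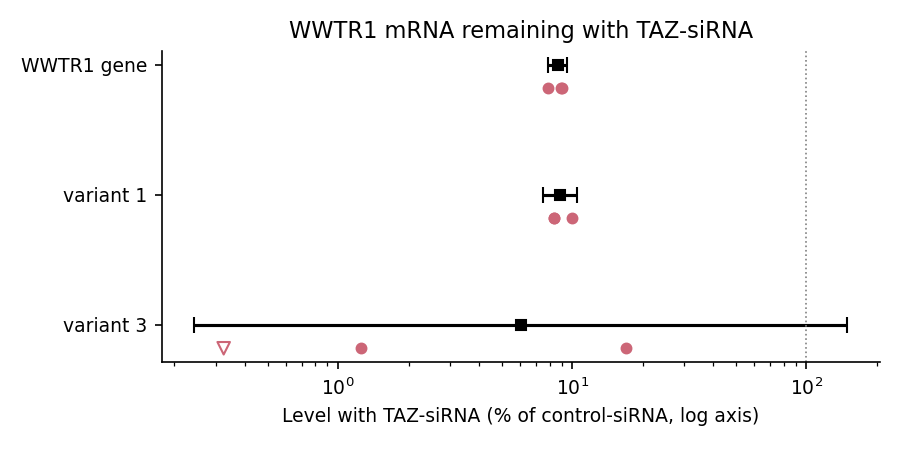
Level with TAZ-siRNA as a percentage of control-siRNA, on a log axis. Squares and bars are the fitted value and its 95% interval, filled points the single TAZ-siRNA libraries, and the open triangle marks replicate 1, where variant 3 is listed at 0, drawn at the worth of 3 counts. The intervals of the gene and of variant 1 are narrow, and that of variant 3 crosses 100%.

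In control-siRNA, the spread of variants 1 and 3 was close to that of other transcripts of their kind. The TAZ-siRNA spread was not compared in this way. There the coefficient of variation was 10.2% for variant 1 and 156% for variant 3. The control-siRNA coefficient of variation of variant 1 was 2.73%, where the median over 846 transcripts within 2-fold of its level that also held at least 90% of their gene's TPM was 3.08%. That of variant 3 was 38.4%, where the median over 2547 transcripts within 2-fold of its level that held under 10% of their gene was 37.2%. When variants 1 and 3 were summed, since they share a start, the coefficient of variation was 1.55% in control-siRNA and 8.30% in TAZ-siRNA. The summed level was 189.5 ± 2.94 CPM against 16.5 ± 1.37 CPM (SD, n = 3 each), with 8.69% remaining. The sum holds nearly all of the gene's counts, and the coefficients of variation of the gene were 0.762% and 7.35%. Gene and transcript CPM were scaled with separate factors (0.978 and 0.992 for control-siRNA replicate 3), so these coefficients are not on one scale.

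The variants that begin upstream were close to the limit of detection. Variant 4 had 11, 9 and 9 counts with control-siRNA and 0, 5 and 4 with TAZ-siRNA. The groups did not overlap (exact permutation p = 0.1, the smallest possible), but the counts were too low for the filter, and this variant was not tested. Variant 2 had 0, 0 and 2 counts with control-siRNA and 1, 0 and 3 with TAZ-siRNA, all at or under the limit of 3 counts. Variant X1 had 0 counts in all 6 libraries. The variants with upstream starts were together assigned 0.0712% to 0.0993% of WWTR1 TPM in cells with control-siRNA, against 0.0371%, 0.526% and 0.703% in those with TAZ-siRNA. Those shares overlapped (exact permutation test, two-sided p = 0.4) and rest on 1 to 11 counts a library, against total WWTR1 counts that were far lower with TAZ-siRNA.

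The fall was not detectably uneven between transcripts at this depth. Variant 1 held 91.4%, 96.1% and 91.8% of WWTR1 TPM with control-siRNA. With TAZ-siRNA it held 99.96%, 86.6% and 98.3%, so the TAZ-siRNA libraries had both the highest and the lowest share. The means of 93.1 ± 2.60% and 94.96 ± 7.28% (SD, n = 3) differed by 1.89 percentage points (exact permutation test, two-sided p = 0.8). The share of variant 3 was 8.52%, 3.85% and 8.13% with control-siRNA and 0%, 12.9% and 0.972% with TAZ-siRNA (p = 0.8 by the same exact test). Leaving out 1 library at a time moved the difference in the share of variant 1 from -0.614 points without TAZ-siRNA replicate 1 to 6.06 points without TAZ-siRNA replicate 2, so its direction was not settled. The usage test of edgeR asks whether the log2 fold changes of a gene's transcripts differ. It gave an adjusted p = 1.0 (edgeR) for the 2 tested transcripts of WWTR1. The log2 fold change relative to the gene was -0.37 for variant 3 and 0.02 for variant 1. Of the 10149 genes tested for usage, 159, or 1.57%, were called. The version in limma gave an adjusted p = 0.397 (unadjusted p = 0.0585). That of edgeR without TAZ-siRNA replicate 2 tested 3 WWTR1 transcripts and gave an adjusted p = 0.283 (unadjusted p = 0.0189). Neither passed the threshold after adjustment over all genes. The unadjusted p of edgeR was 0.675 on all libraries and 0.602 to 0.905 in the other fits that left out 1 library. The interval of variant 3 is too wide to show that both transcripts fell alike.

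**Figure D4:**
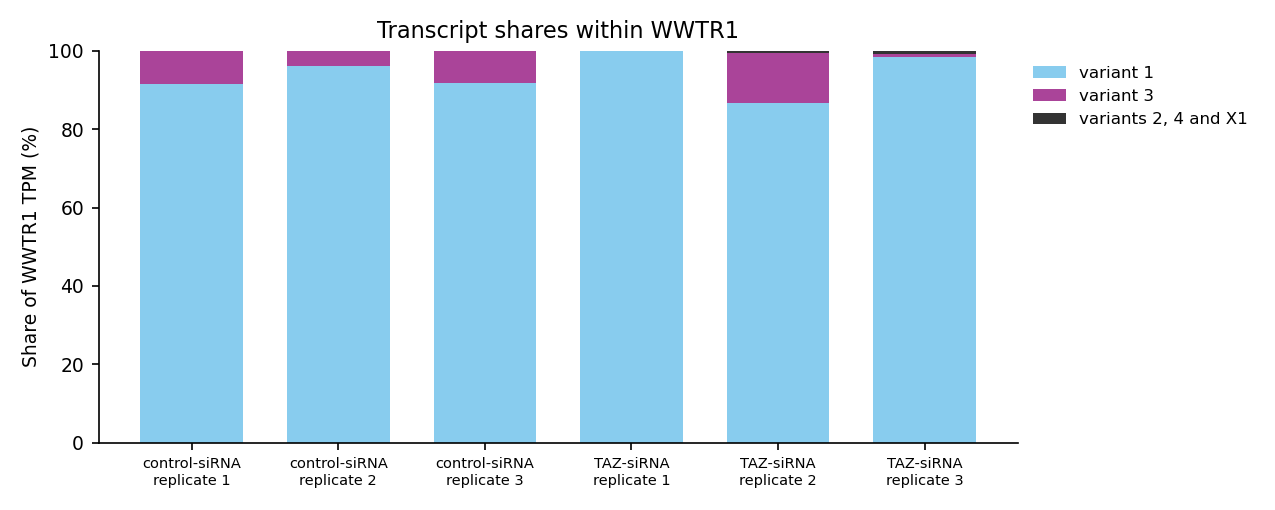
Share of WWTR1 TPM held by variant 1, variant 3 and the variants with upstream starts in each library, stacked to 100%. The share of variant 3 ranged from 3.85% to 8.52% in control-siRNA libraries and from 0% to 12.9% after TAZ-siRNA.

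WWTR1-AS1 was near the limit of detection in all libraries. Its counts were 4, 14 and 7 with control-siRNA and 15, 6 and 5 with TAZ-siRNA. In CPM these were 0.0600, 0.225 and 0.144 against 0.206, 0.122 and 0.0895, and the groups overlapped over most of their range. The means were 0.143 ± 0.0825 and 0.139 ± 0.0600 CPM (SD, n = 3), which did not differ beyond the spread (exact permutation test, two-sided p = 1.0). Per length, WWTR1-AS1 was at 0.169 ± 0.0996 TPM with control-siRNA and 0.175 ± 0.0878 TPM with TAZ-siRNA (SD, n = 3), where WWTR1 was at 82.3 and 7.40 TPM. The gene did not pass the filter on low counts. Fitted without that filter, its log2 fold change was -0.01 (SE 0.666, adjusted p = 1.0, edgeR), with a 95% interval from -1.44 to 1.41. As a fold this interval runs from 0.370 to 2.66, so changes within that range are not excluded at this depth. The 8.65% that remained of WWTR1 lies below this interval.

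No other tested gene near the locus fell as far as WWTR1. Of 28 further genes within 500000 bases of either end, 10 passed the filter and 1 was called lower, 10.0% against the 10.2% of all genes called lower. That gene was HPS3, a subunit of a complex that forms lysosome-related organelles, 343497 bases away. Its CPM went from 79.3 ± 0.879 to 67.7 ± 3.01 (SD, n = 3 each; log2 fold change -0.23, adjusted p = 0.00872, edgeR), and it was not called without control-siRNA replicate 2. COMMD2, whose nearest end lies 13682 bases beyond the WWTR1 start farthest upstream, was at 37.4 ± 1.42 and 36.1 ± 1.25 CPM (SD, n = 3) with a log2 fold change of -0.05 (adjusted p = 0.546, edgeR). The log2 fold changes of the others that did not pass were -0.13 for GYG1, -0.11 for HLTF, -0.06 for TM4SF18, 0.05 for TM4SF1, -0.12 for RNF13, 0.03 for PFN2, -0.36 for LOC646903 and 0.17 for TMEM183B. Their median with HPS3 and COMMD2 was -0.09, and that of all genes tested was -0.01.

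Genes of the Hippo pathway around TAZ changed far less than WWTR1. Of 20 listed genes, 18 were tested and 8 passed (44.4%, against 22.1% of all genes), 2 higher and 6 lower. The list was chosen with earlier results of these data known, so this share is descriptive only. The median log2 change of the 18 was 0.04. Of the TEAD factors, through which TAZ binds DNA, TEAD1 (log2 fold change -0.27) and TEAD4 (-0.31) fell, and TEAD2 (0.03) and TEAD3 (0.07) did not pass. Of the VGLL cofactors, which compete for the TEAD factors, VGLL4 rose (0.40) and VGLL3 fell (-0.58), while VGLL1 and VGLL2 had 0 counts. Among the kinases and their adaptors, which restrain TAZ, STK4 fell (-0.20), and STK3 (0.11), LATS1 (0.18), LATS2 (0.02), SAV1 (0.08), MOB1A (0.04) and MOB1B (0.19) did not pass. NF2, an upstream activator of the kinases, fell (-0.57). Of the angiomotins, which hold YAP and TAZ at junctions, AMOTL2 fell (-0.75), AMOTL1 rose (0.37) and AMOT (0.07) did not pass. The count was 5 without control-siRNA replicate 2.

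Of 22 listed targets of YAP and TAZ, all were tested and 11 were called, all lower (50.0%, against 10.2% of all genes called lower), with a median of -0.29. This list was chosen with earlier results of these data known, so its share describes the list and is no independent test. AMOTL2 and LATS2 are on both lists. The largest falls were those of ANKRD1, a muscle ankyrin repeat protein (log2 fold change -2.93), the matricellular genes CCN1 (-1.42) and CCN2 (-1.02), and the ligand gene TGFB2 (-1.35). None of the called targets fell as far as WWTR1 on this scale.

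**Figure D5:**
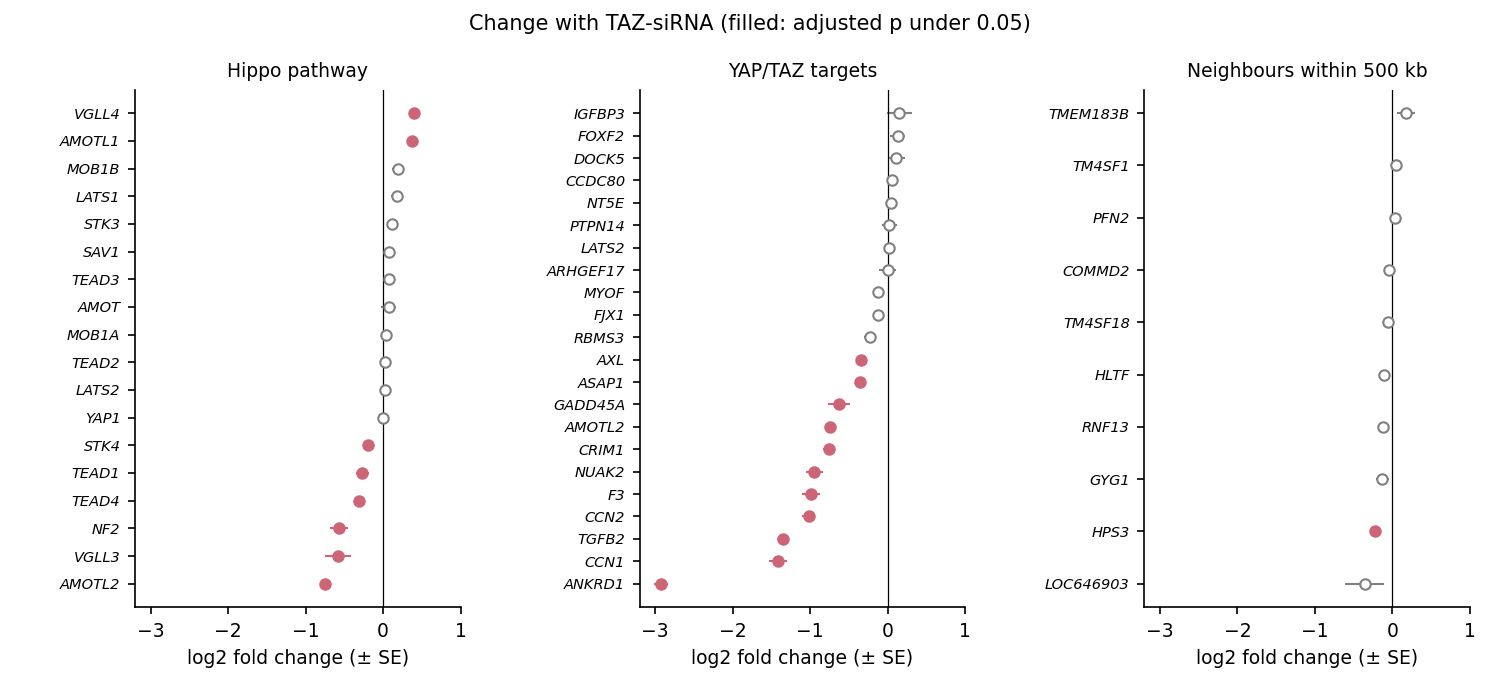
Log2 fold change with TAZ-siRNA (± SE) of the tested genes of the Hippo pathway list, the YAP and TAZ target list and the genes within 500 kilobases of WWTR1, from 6 libraries, with filled points for adjusted p under 0.05 by edgeR. The filled points lie between -0.75 and 0.40 for the pathway, between -2.93 and -0.35 for the targets, and the neighbours hold 1, HPS3 at -0.23.

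The genes whose profile over the 6 libraries lay nearest to that of WWTR1 were ANKRD1, SFTA1P, KRTAP2-3, HIF1A-AS3 and CLDN1. Likeness was the Euclidean distance between log2(CPM + 0.1) values set against the control-siRNA mean, over the 13591 genes that averaged 1 CPM or more, and WWTR1-AS1 did not reach that level. The distance was 1.06 for ANKRD1 (13.1% remaining), 1.61 for SFTA1P (16.1%), 1.75 for KRTAP2-3 (3.68%), 2.41 for HIF1A-AS3 (20.6%) and 2.69 for CLDN1 (24.9%). Since values were set against the control-siRNA mean, this distance mostly reflects how near the size of a fall is to that of WWTR1. KRTAP2-3 averaged 0.247 CPM with TAZ-siRNA (log2 fold change -4.81), a level at which the added 0.1 draws it nearer to WWTR1. KRTAP2-3 belongs to a family of near-identical genes and HIF1A-AS3 is an antisense gene, so the counts of both are uncertain.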

How the data were processed

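RNA from 3 control-siRNA and 3 TAZ-siRNA preparations of MDA-MB-231 cells was made into stranded mRNA libraries and read as paired ends. Per their methods, the authors aligned trimmed reads to GRCh38 by HISAT2 and estimated RefSeq gene and transcript levels in StringTie. The submitters' processing notes instead name Bowtie 0.12.2 and the builds mm8 and GRCh38, and the tables' WWTR1 coordinates match GRCh38. The deposited tables hold the estimated counts, FPKM and TPM that the authors made in this way for each library, and the authors' FPKM and TPM are already scaled for length and depth. Estimated counts divide reads shared by transcripts of a gene, so the counts of variants 1 and 3, which share their start and end, may depend on each other.

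Samples were grouped by the labels and numbered 1 to 3 as in the table columns, while the sample titles number them 3 to 5. The counts, whole numbers as deposited, were tested across all genes, and separately all transcripts, with edgeR 4.0.16 (TMM, filterByExpr with a minimum count of 10, robust quasi-likelihood test, Benjamini-Hochberg adjustment, threshold 0.05). Transcript usage was tested with edgeR's diffSpliceDGE, which on simulated counts made more false calls than its threshold allows. Alternatives used DESeq2 1.42.0 and limma 3.58.1. Single values were compared by exact permutation. The genes named were the members, the pathway list, the 4 largest called changes of the target list, the neighbours tested and the 5 most alike genes. Members and lists were chosen with earlier results of these data known.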

Additional observations from a re-analysis of the deposited data

How the results depend on the processing

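The fall of WWTR1 as a gene kept its direction and passed the threshold in all 13 alternatives, from -3.57 to -3.47 on leaving out 1 library, -3.15 and -3.48 with limma on log2(FPKM + 1) and log2(FPKM + 0.1), and -3.53 with DESeq2. DESeq2 called 2302 of 63720 transcripts (3.61%) where edgeR called 11, and variant 1 passed by both and variant 3 by neither. The cause was not tested. The number of WWTR1 transcripts called was 0 to 1 on leaving out 1 library, and the difference in the share of variant 1 ranged from -0.614 to 6.06 points. The adjusted p of the usage test was 0.283 to 1.0 without 1 library and 0.722 with no filter. With at least 10 counts in every library the usage test had 1 WWTR1 transcript left and gave no value. WWTR1-AS1 could be fitted only with no filter on low counts or on leaving out 1 of 4 libraries, not under the other alternatives, which kept the filter. Its log2 fold change turned from -0.04, the log2 ratio of mean CPM, to 0.02 without control-siRNA replicate 3, 0.10 without TAZ-siRNA replicate 2 and 0.25 without TAZ-siRNA replicate 3, and was -0.38 without control-siRNA replicate 1. The pathway calls were 5 with limma at either pseudocount and 5 to 9 on leaving out 1 library (8 with edgeR on all libraries). The neighbour calls were 0 to 2, falling to 0 when control-siRNA replicate 2 was left out and reaching 2 when TAZ-siRNA replicate 1 was, and the target calls 10 to 12. About 3 counts in a library is the limit of detection for variants 2, 4 and X1, and near it for WWTR1-AS1.

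Same-numbered libraries of the groups showed at most weak pairing. The correlation of their deviations from the group means over genes was 0.0388, 0.0344 and 0.206. For libraries of unlike number it ran from -0.160 to 0.133. With the replicate block the log2 fold change was -3.53 for WWTR1 and -3.50 for variant 1, which no longer passed (adjusted p = 0.586, edgeR), so that 0 WWTR1 transcripts were called, as were 0 of all transcripts, and the usage test gave an adjusted p of 1.0 (edgeR).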
